A study of Mus musculus with 8 samples.

Results

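The Skint genes are a mouse gene family whose name stands for selection and upkeep of intraepithelial T cells. They were followed here through embryonic epidermis with and without Noc2l. The list held 10 genes, Skint1 to Skint7 and Skint9 to Skint11, of the 23146 genes in the count files. A transcript was matched for 9 of them, and Skint2 was not analysed here. Where a gene had several transcripts, the transcript with the largest total over the 8 libraries stood for it, so the transcripts were chosen by the size of these totals and not by a contrast between groups. Of the 9 genes, 8 were among the 16342 genes that passed the filter on low counts, and Skint11 was not. The family was taken up with the fall of Skint3 and Skint9 at E15.5 already known, and the values of those genes in that contrast are therefore given as a description with no p-value.

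The Skint genes encode membrane proteins of the immunoglobulin superfamily, related to the butyrophilins. In mice they are expressed in skin and thymus. Skint1 is needed in the fetal thymus for the selection of the gamma-delta T cells that seed the epidermis before birth and stay there as dendritic epidermal T cells, and suprabasal keratinocytes express it as well. The partners of most of the other members are not known, although Skint3 and Skint9 have been linked to the upkeep of epidermal T cells at wound edges in mouse skin.

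RNA came from 4 groups of 2 libraries each: Noc2l (Nir) knockout epidermis at E15.5, control epidermis at E15.5, knockout epidermis at E17.5 and control epidermis at E17.5. Knockout embryos came from a cross of mice with floxed Nir alleles to mice carrying Krt14-Cre, in which the promoter of keratin 14 drives Cre recombinase in basal keratinocytes and other Krt14-expressing epithelia. Controls carried floxed Nir, and the labels do not say whether any of them carried Cre. Epidermis was lifted off the dermis, and the labels do not say whether a library is 1 embryo, a pool or a litter, so the spread behind each p-value is that of these libraries and may be partly technical. Total gene counts ran from 25226357 to 28895657 per library.

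The control libraries carried the markers of the labelled tissue, with Krt1, a keratin of suprabasal cells, between 19800 and 39900 CPM (counts scaled to a common library total). Noc2l stood at 95.6 and 91.6 CPM in E15.5 knockout libraries, against 107 and 97.4 CPM in E15.5 controls, and at 85.4 and 86.9 CPM in E17.5 knockout libraries, against 106 and 121 CPM in E17.5 controls. The sources used here do not name the deleted exons, so these levels do not check the labels. All 10 dermal fibroblast markers looked for were detected, and their summed level was 77600 to 96000 CPM in E15.5 knockout libraries, against 31400 to 33300 CPM in controls, and 98300 to 104000 CPM in E17.5 knockout libraries, against 27200 to 31400 CPM in controls. None of these markers was at 0. A change in bulk epidermis can mean fewer cells of a type or less RNA per cell, and these cannot be told apart here.

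The sequences just upstream of the start sites are shown for 3 pairs of genes with closely alike coding sequence. By the RefSeq annotation these bases lie outside the counted transcripts, so their likeness does not show whether counts are shared. They are given as the 250 bases before the RefSeq start, 5′ to 3′ on the strand of the gene, from RefSeq on GRCm38.p6. Skint6 and Skint5 are the most alike over the whole window, with 28 mismatches in 250 aligned bases (88.8% identity). The capitals mark a 14-base block that begins 228 bases before the start in both.
Skint6 (chr4:113286974-113287223, minus strand): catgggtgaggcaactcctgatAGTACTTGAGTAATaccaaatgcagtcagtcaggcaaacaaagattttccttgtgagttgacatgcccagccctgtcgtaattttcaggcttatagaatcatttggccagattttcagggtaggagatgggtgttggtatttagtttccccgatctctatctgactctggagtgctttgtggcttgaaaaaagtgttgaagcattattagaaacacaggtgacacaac
Skint5 (chr4:113999504-113999753, minus strand): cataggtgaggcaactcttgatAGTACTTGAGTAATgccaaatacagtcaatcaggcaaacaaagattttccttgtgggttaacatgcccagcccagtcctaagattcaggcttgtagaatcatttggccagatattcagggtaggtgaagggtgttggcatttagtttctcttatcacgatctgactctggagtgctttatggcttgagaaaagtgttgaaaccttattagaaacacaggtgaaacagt
The same block, AGTACTTGAGTAAT, lies upstream of 5 of the 12 annotated starts of Skint genes. These are the starts of Skint1, Skint3, Skint5 and Skint6 and a second start of Skint4. No start outside the family holds it on its own strand, since it was found at 5 of all 32851 starts in the table (0.0152%).

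Skint9 had the highest control level per kilobase of transcript at both stages. Skint9 and its neighbour Skint10 align over 207 upstream bases at 75.4% identity. The capitals mark a 19-base run that both hold, 92 bases before the start of Skint9 and 53 bases before the start of Skint10, and that no other start in the table holds.
Skint9 (chr4:112433986-112434235, minus strand): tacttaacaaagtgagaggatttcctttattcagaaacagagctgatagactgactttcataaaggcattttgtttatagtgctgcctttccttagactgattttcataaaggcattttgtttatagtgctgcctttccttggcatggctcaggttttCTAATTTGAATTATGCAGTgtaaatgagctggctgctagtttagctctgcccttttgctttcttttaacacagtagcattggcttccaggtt
Skint10 (chr4:112774862-112775111, minus strand): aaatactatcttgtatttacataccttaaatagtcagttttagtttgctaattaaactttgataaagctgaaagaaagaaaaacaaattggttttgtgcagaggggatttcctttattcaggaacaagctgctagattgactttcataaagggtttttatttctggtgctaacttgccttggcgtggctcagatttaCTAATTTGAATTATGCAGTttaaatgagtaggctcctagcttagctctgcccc
Skint7 and Skint8 share a 51-base run, in capitals. The start that GENCODE gives for Skint8 lies inside the window printed for it, upstream of the RefSeq start, so the distance of the run from the start depends on the annotation. Skint8 is not on the list, and it was added for this comparison after its values were seen.
Skint8 (chr4:111919305-111919554, plus strand): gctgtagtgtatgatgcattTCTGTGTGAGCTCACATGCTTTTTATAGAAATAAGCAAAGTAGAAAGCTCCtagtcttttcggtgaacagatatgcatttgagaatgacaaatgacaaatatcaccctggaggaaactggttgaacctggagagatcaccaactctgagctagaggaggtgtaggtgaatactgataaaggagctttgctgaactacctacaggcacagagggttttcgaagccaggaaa
Skint7 (chr4:111972677-111972926, plus strand): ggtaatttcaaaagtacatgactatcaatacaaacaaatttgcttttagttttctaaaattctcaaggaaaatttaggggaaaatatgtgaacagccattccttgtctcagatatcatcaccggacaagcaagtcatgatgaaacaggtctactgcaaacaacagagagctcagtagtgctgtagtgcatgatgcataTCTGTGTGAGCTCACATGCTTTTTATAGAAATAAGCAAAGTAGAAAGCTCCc
Each of the shared runs is a match of letters and was not tested for activity. Of simple motifs searched on both strands, TATAAA occurred upstream of 7 of the 12 Skint starts, against 12.4% of all starts. The letters TGANTCA (the AP-1 motif) occurred upstream of Skint11 alone, 1 of 12 against 6.75% of all starts. AGATAA (the GATA motif) occurred upstream of the second start of Skint4 alone, 1 of 12 against 9.99% of all starts.

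Upstream, Skint10 was closer to Skint11 (88.8% over 197 bases) than to Skint9. Coding sequence was 90.5% identical between Skint8 and Skint7 over 1185 aligned bases, 88.5% between Skint5 and Skint6 over 3720 bases and 86.3% between Skint9 and Skint10 over 955 bases. Stretches of 50 bases that are identical in another measured member made up 14.8% of the Skint7 transcript, 16.6% of Skint8, 4.09% of Skint5 and 4.64% of Skint6, and 0% of the rest. The sources used here do not say how reads that fit several places were counted, so counts within the Skint7 and Skint8 pair, and to a smaller extent within the Skint5 and Skint6 pair, may be shared.

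In control epidermis, all 9 measured Skint genes were detected at both stages, at very different levels when set against transcript length. Per kilobase (kb) of transcript, Skint9 was highest at E17.5, with 41.4 ± 8.11 CPM per kb, and at E15.5, with 22.1 ± 0.591 CPM per kb (SD, n = 2 libraries each, as for all such values). At E15.5 it was followed by Skint3 (13.1 ± 0.778), Skint10 (12.4 ± 1.25) and Skint7 (11 ± 1.91), whose libraries overlapped from one gene to the next. Below them came Skint6 (8.12 ± 0.691), Skint4 (6.58 ± 0.956), Skint1 (4.62 ± 0.157), Skint5 (0.799 ± 0.212) and Skint11 (0.178 ± 0.0171), each apart from its neighbours in this order in both libraries. At E17.5 the middle of the order could no longer be resolved: Skint10 (8.14 ± 1.19), Skint7 (6.97 ± 2.2), Skint3 (6.66 ± 1.45), Skint6 (5.05 ± 1.58) and Skint4 (4.14 ± 1.17) each overlapped the next. Skint9 lay above all of them, and Skint1 (2.47 ± 0.173), Skint5 (0.913 ± 0.362) and Skint11 (0.0621 ± 0.0226) lay below them in that order. Skint11 rested on 2 to 7 counts per control library.

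**Figure D1:**
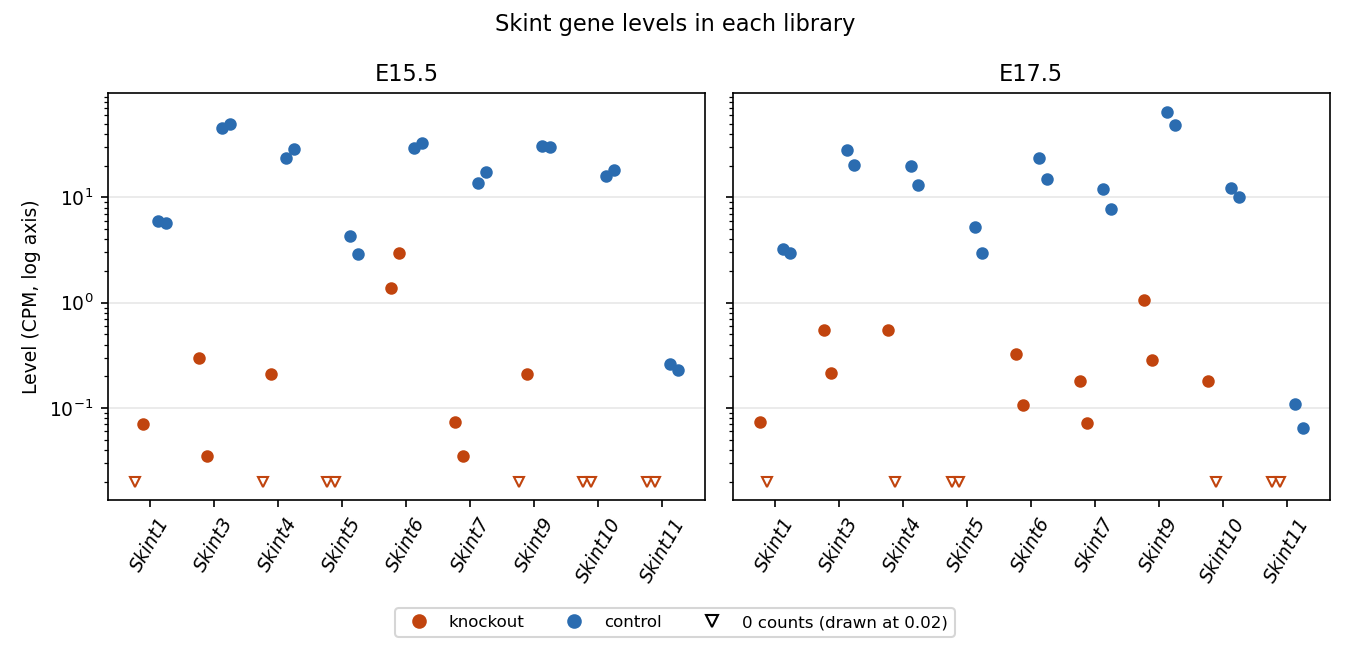
Level of each of the 9 measured Skint genes in every library, in CPM on a log axis, at E15.5 and at E17.5, with knockout points left of control points, 1 point per library and open triangles at 0.02 for libraries with 0 counts. Control points lie above knockout points for every gene, and the Skint6 knockout points at E15.5, at 1.37 and 2.96 CPM, stand above those of the other genes.

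In E15.5 knockout epidermis the family was nearly silent except for Skint6. The 9 genes together had 47 and 100 counts in the knockout libraries, against 4491 and 4846 in the controls. In CPM this was 2.63 ± 1.26 in knockout epidermis and 178 ± 11.7 in controls. Skint1, the selecting member, had 0 and 2 counts in knockout libraries, against 158 and 148 in controls. That is a 161-fold lower level (95% exact counting interval 44.3 to 1340; such intervals are taken over the counts of a group and cover counting error only). The groups were far apart, and edgeR's quasi-likelihood test on all 16342 genes gave Skint1 an adjusted p of 3.4e-06 (Benjamini-Hochberg). All tested members but Skint6 passed the filter through the controls alone, and the family was taken up with falls already known. The p-values of single members in the knockout comparisons are therefore a description only. Skint3 had 8 and 1 counts, against 1210 and 1293 in controls, a 294-fold lower level (154 to 643). Skint9 had 0 and 6 counts, against 820 and 776 in controls, a 281-fold lower level (129 to 766). For both genes a single knockout library held most of the few counts.

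Skint4 had 0 and 6 counts in E15.5 knockout libraries, against 625 and 755 in controls, and was 243-fold lower (111 to 663, adjusted p 3.2e-06 by edgeR). Skint7 had 2 and 1 counts, against 364 and 458 in controls, and was 289-fold lower (98.6 to 1410, adjusted p 1.7e-07 by edgeR). Both fell to within a few counts of nothing in each knockout library. Skint10 had 0 counts in both knockout libraries, against 421 and 477 in controls, which bounds its level as at least 316-fold lower when the knockout group is set at 3 counts (adjusted p 4.7e-07 by edgeR). Skint5 also had 0 counts in both, against 113 and 76 in controls, and was at least 66.5-fold lower (adjusted p 3.5e-05 by edgeR). Skint11 had 0 counts in both, against 7 and 6 in controls, and was at least 4.57-fold lower. It was left out of the test by the filter; with no filter its adjusted p was 0.0401 by edgeR.

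Skint6 kept the most expression of the listed genes at E15.5. It had 37 and 84 counts in knockout libraries, or 1.37 and 2.96 CPM, against 773 and 857 counts, or 29.2 and 32.9 CPM, in controls. The groups did not overlap, and the level was 14.2-fold lower (11.8 to 17.2), with a fitted log2 fold change of -3.83 ± 0.32 (SE, adjusted p 3.5e-06 by edgeR). Knockout replicate 2 held most of these counts, and without it the fitted change was -4.50. Skint6 supplied 78.7% (exact 95% interval 64.3 to 89.3) and 84.0% (75.3 to 90.6) of the Skint counts in the E15.5 knockout libraries, against 17.2% and 17.7% in the controls. Skint5, its closest copy, had no count in the same libraries. The span of Skint6 overlaps 3 other annotated genes, with 63 bases of exon in common, and the sources used here do not state the strand setting of the counting.

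Skint8 had the next smallest fold change of the cluster at E15.5. It had 6 and 13 counts in E15.5 knockout libraries, against 114 and 165 in controls, and was 15.499-fold lower (9.74 to 26.1). The number of Skint8 counts per Skint7 count was 3 and 13 in the E15.5 knockout libraries, against 0.313 and 0.36 in the controls. The knockout ratios rest on 2 and 1 counts of Skint7.

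**Figure D2:**
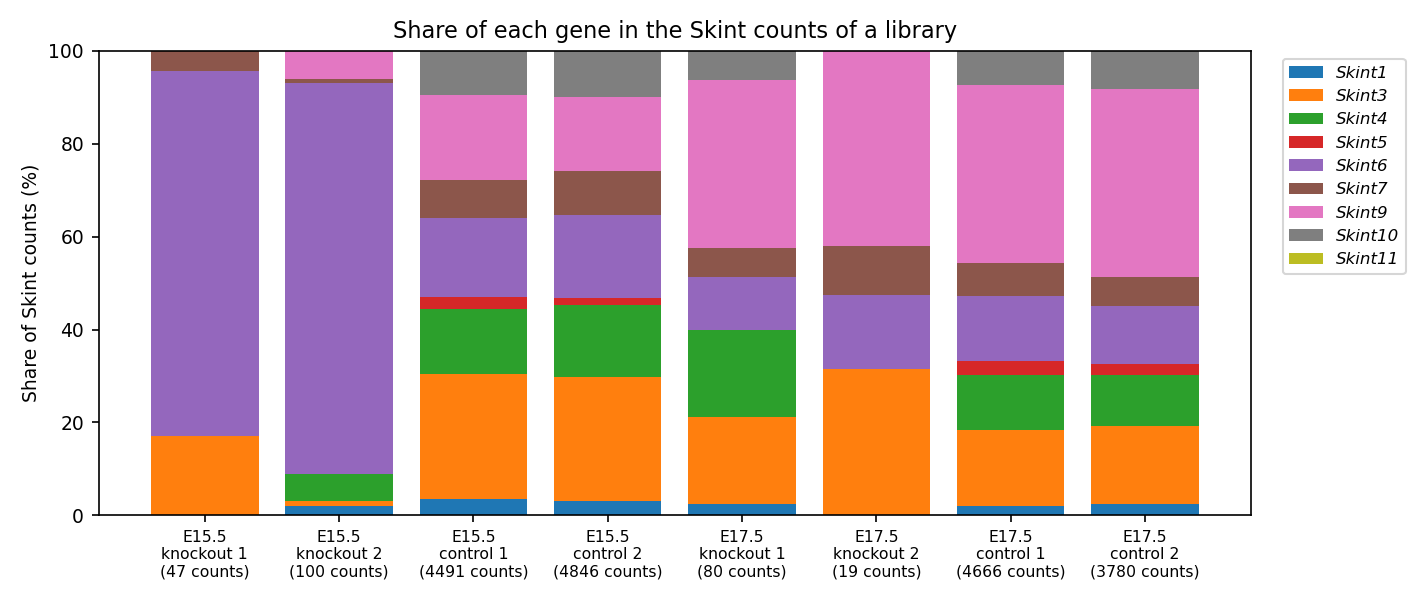
Share of the summed Skint counts that each gene supplied, in percent, in each of the 8 libraries, with knockout left of control at each stage. Skint6 supplied 78.7% and 84.0% in the E15.5 knockout libraries, against 17.2% and 17.7% in the E15.5 controls, and at E17.5 it supplied 11.2% and 15.8% in knockout libraries, against 14.0% and 12.4% in the E17.5 controls.

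Counted over the family, 8 of the 8 Skint genes tested were lower in E15.5 knockout epidermis, beside 22.3% of all genes. This count is a description only, because the members passed the filter through the controls and 2 of them were known to have fallen. The median of their fitted log2 fold changes was -8.07 (-8.03 from count ratios, with genes at 0 set at their bound), beside -0.00 over all genes, and 1.24% of all genes had fallen by 16-fold or more. With so few knockout counts the sizes turn on single libraries. Without knockout replicate 1 the fitted change was -6.94 for Skint4 and -7.14 for Skint9, and without replicate 2 it was -7.31 for Skint3. Without replicate 2, Skint1, Skint4 and Skint9 had 0 knockout counts left, and without replicate 1, Skint3 had 1, so that no size is given for these. All 8 calls held in each of these fits.

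At E17.5 the fall took in Skint6 as much as the others. The 9 genes had 80 and 19 counts in knockout libraries, against 4666 and 3780 in controls, or 1.8 ± 1.58 CPM in knockout epidermis and 145 ± 33.8 CPM in controls. Skint1 had 2 and 0 counts, against 90 and 92 in controls, and was 85.5-fold lower (23.3 to 712, adjusted p 9e-06 by edgeR). Skint3 had 15 and 6 counts, against 769 and 637 in controls, and was 62.9-fold lower (41.0 to 102, adjusted p 1.2e-07 by edgeR). Skint9 had 29 and 8 counts, against 1784 and 1524 in controls, and was 84.0-fold lower (60.8 to 120, adjusted p 1.2e-07 by edgeR). Every control library lay far above both knockout libraries for these genes, and knockout replicate 1 was the higher of the pair in each.

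Skint6 had 9 and 3 counts in E17.5 knockout libraries, against 651 and 468 in controls, and was 87.7-fold lower (49.98 to 170, adjusted p 5.1e-07 by edgeR). Skint4 had 15 and 0 counts, against 548 and 412 in controls, and was 60.2-fold lower (36.3 to 108, adjusted p 7.3e-06 by edgeR). Skint7 had 5 and 2 counts, against 335 and 240 in controls, and was 77.2-fold lower (37.2 to 193, adjusted p 3.5e-07 by edgeR). These 3 genes again had their higher knockout value in replicate 1. Skint10 had 5 and 0 counts, against 341 and 313 in controls, and was 123-fold lower (52.4 to 380, adjusted p 9.5e-07 by edgeR). Skint5 had 0 counts in both knockout libraries, against 145 and 92 in controls, and was at least 74.3-fold lower (adjusted p 2e-05 by edgeR). Skint11 had 0 counts in both, against 3 and 2 in controls, which bounds its level as at least 1.57-fold lower, and with no filter its adjusted p was 0.163 by edgeR. Skint8, with 4 and 2 counts against 82 and 92 in controls, was 27.3-fold lower (12.3 to 75.3).

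All 8 tested Skint genes were lower at E17.5, beside 26.7% of all genes, and here too they passed the filter through the controls. This count and the E17.5 p-values of the members are therefore a description only. The median fitted log2 fold change was -6.32 (-6.33 from count ratios and bounds), beside -0.02 over all genes, and 2.29% of all genes had fallen by 16-fold or more. Leaving out knockout replicate 1 took the fitted change to -6.80 for Skint3 and -7.63 for Skint9, and left Skint1, Skint4, Skint6, Skint7 and Skint10 with 3 knockout counts or fewer, so that no size is given for them. Leaving out replicate 2 took it to -4.92 for Skint4, -5.76 for Skint9 and -5.92 for Skint10, and all 8 calls held in each of these fits.

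**Figure D3:**
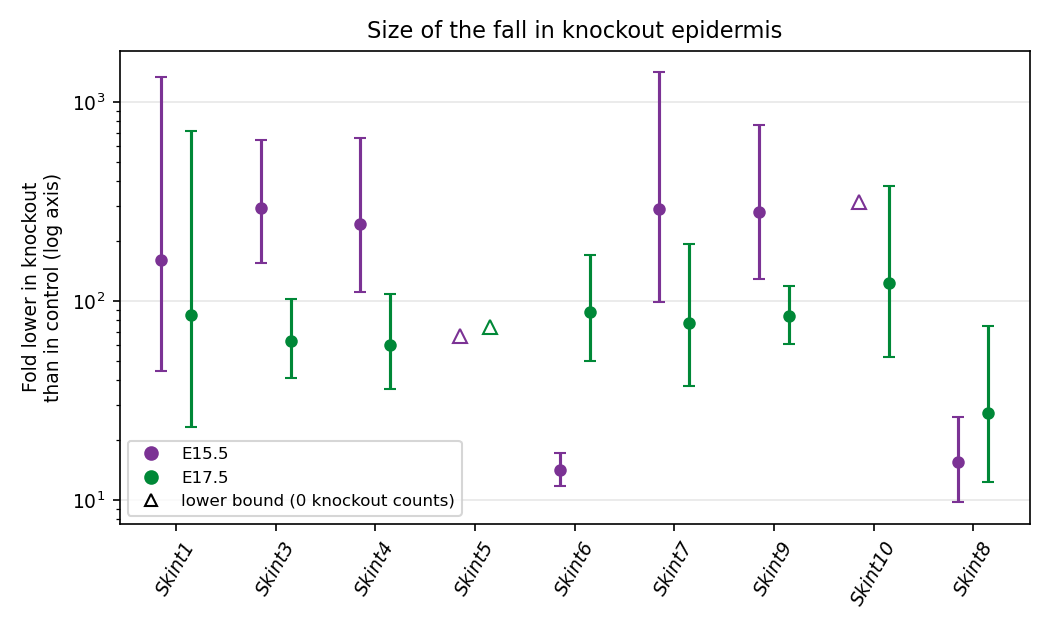
Fold by which the tested Skint genes and Skint8 were lower in knockout than in control epidermis at E15.5 and at E17.5, on a log axis. Points are ratios of summed counts with 95% exact counting intervals, and open triangles are lower bounds where the knockout group had 0 counts; Skint6 and Skint8 lie lowest at E15.5, at 14.2-fold and 15.499-fold.

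Skint6 was the member whose knockout effect differed between the stages. Its log2 fold change in knockout epidermis was lower at E17.5 than at E15.5 by a difference of -2.61 ± 0.64 (SE, adjusted p 0.045 by edgeR's quasi-likelihood test of the difference). In knockout epidermis itself Skint6 was at 0.329 and 0.108 CPM at E17.5, against 1.37 and 2.96 CPM at E15.5, a log2 change of -3.29 ± 0.56 (adjusted p 0.002 by edgeR). In controls it was at 23.6 and 15.02 CPM at E17.5, against 29.2 and 32.9 CPM at E15.5, a log2 change of -0.69 ± 0.27 that missed the threshold (adjusted p 0.14 by edgeR).

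The test of the difference holds by a small margin. It was called for 1 of the 8 Skint genes, beside 4.35% of all genes. Without E15.5 knockout replicate 2 the difference was -1.96 (adjusted p 0.163), and without E17.5 knockout replicate 1 it was -3.61 (adjusted p 0.0672), a size that then rests on 3 counts. The adjusted p was 0.169 without E17.5 knockout replicate 2, 0.0732 without E17.5 control replicate 1, and 0.111 or 0.088 when either E15.5 control library was left out, so 6 of the 8 libraries each end the call when left out. The change within knockout epidermis stayed past the threshold, at -2.64 (adjusted p 0.0163) without E15.5 knockout replicate 2 and with an adjusted p of 0.00627 without E17.5 knockout replicate 1. Skint3 and Skint9 pointed the other way, with differences of 2.19 ± 0.75 (adjusted p 0.14) and 1.68 ± 0.91 (adjusted p 0.38), and Skint4 had 1.97 ± 1.28 (adjusted p 0.48), which turned to -3.99 without E17.5 knockout replicate 1, where the group has 0 counts left and the prior count sets the size. None of these passed the test. For Skint1, Skint5, Skint7 and Skint10 a knockout group held 3 counts or fewer, and no size of difference is given.

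**Figure D4:**
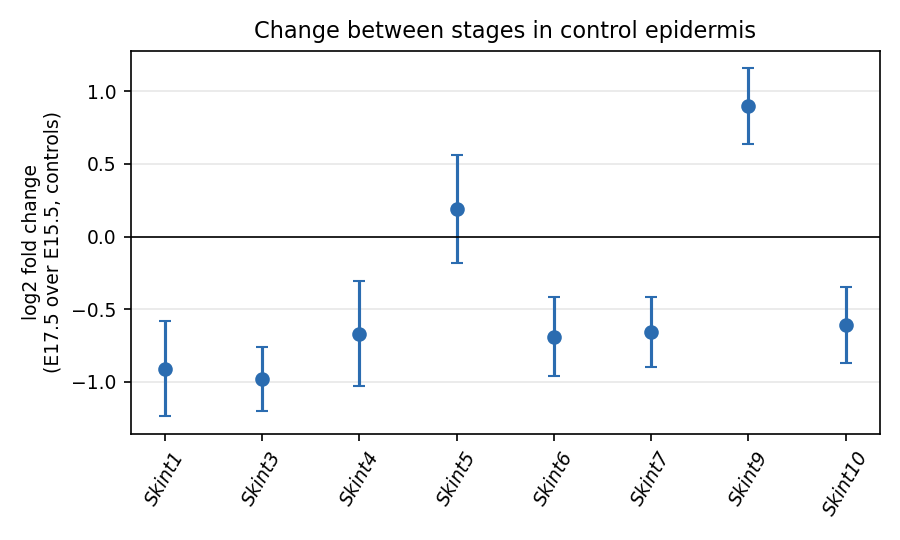
Fitted log2 fold change of the tested Skint genes in control epidermis, E17.5 over E15.5, with bars of 1 SE. Skint9 lies at 0.90 and Skint3 at -0.98, the pair past the test's threshold, and 6 of the 8 genes lie below 0.

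Between the stages, Skint9 and Skint3 changed in opposite directions in control epidermis. Skint9 was at 64.7 and 48.9 CPM at E17.5, against 31.0 and 29.8 CPM at E15.5, a rise of 0.90 ± 0.26 on the log2 scale (adjusted p 0.045 by edgeR). Skint3 was at 27.9 and 20.5 CPM at E17.5, against 45.7 and 49.7 CPM at E15.5, a log2 change of -0.98 ± 0.22 (adjusted p 0.015 by edgeR). In both cases the libraries of the stages did not overlap. Skint9 supplied 38.2% and 40.3% of Skint counts in E17.5 controls, against 18.3% and 16.0% in E15.5 controls.

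The other tested members did not pass the test in controls. Skint1 was at 3.26 and 2.95 CPM at E17.5, against 5.96 and 5.68 CPM at E15.5, a log2 change of -0.91 ± 0.33 (adjusted p 0.12 by edgeR). Skint4, Skint7 and Skint10 had log2 changes of -0.67 ± 0.36 (adjusted p 0.31), -0.66 ± 0.24 (0.12) and -0.61 ± 0.26 (0.19), and Skint5 had 0.19 ± 0.37 (0.83). So 2 of 8 Skint genes were called between the control stages, 1 higher and 1 lower, beside 10.9% of all genes (3.15% higher and 7.7% lower). They had a median log2 change of -0.67, beside -0.00 over all genes. Both calls are sensitive: in DESeq2 the adjusted p was 0.696 for Skint9 and 0.236 for Skint3. Leaving out 1 control library gave Skint9 an adjusted p between 0.0733 and 0.239, and Skint3 lost its call without E15.5 control replicate 1 (0.0626), E15.5 control replicate 2 (0.133) or E17.5 control replicate 2 (0.142). Skint7 passed the threshold without E17.5 control replicate 1, at -1.02.

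Ratios within a library do not depend on the scaling between libraries. There were 5.23 and 4.87 Skint9 counts per count of its close relative Skint10 in E17.5 controls, against 1.95 and 1.63 in E15.5 controls. Per count of Skint3 there were 2.32 and 2.39 Skint9 counts in E17.5 controls, against 0.678 and 0.6 in E15.5 controls. The ratios of the stages did not overlap. In E17.5 knockout replicate 1 the ratio of Skint9 to Skint10 was 5.8, on 29 and 5 counts, and the other knockout libraries had no Skint10 count. Per count of Skint5, Skint6 had 4.49 and 5.09 in E17.5 controls, against 6.84 and 11.3 in E15.5 controls.

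In knockout epidermis 1 of the 8 tested Skint genes, Skint6, was called between the stages, beside 13.1% of all genes. Skint9 was at 1.06 and 0.287 CPM at E17.5, against 0 and 0.211 CPM at E15.5, a log2 change of 2.58 ± 0.84 that missed the threshold (adjusted p 0.068 by edgeR). It was past the threshold without E15.5 knockout replicate 2 (7.21, adjusted p 0.0406, with the prior count setting the size) and without E17.5 knockout replicate 2 (3.23, adjusted p 0.013).

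All 10 measured genes lie in 1 cluster on chromosome 4, between 111919392 and 114245028 (GRCm38), a span of 2.33 Mb. The annotation places 14 other genes inside it, mostly pseudogenes, and none of them had a transcript in the count files. Skint8, Skint7, Skint1, Skint4 and Skint3 lie on the plus strand at the left, Skint9, Skint10, Skint6 and Skint5 on the minus strand in the middle, and Skint11 on the plus strand at the right end. Skint6 spans 112804616 to 113286973 with 49 exons, and its copy Skint5 spans 113477891 to 113999503 with 59 exons. Skint1 spans 112006269 to 112029538. The tested genes that fell in knockout epidermis lie on both strands, from Skint7 to Skint5. Apart from Skint11, whose fold is known only as a bound, the smallest fold changes at E15.5 were those of Skint8 at the left edge and Skint6 near the centre.

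**Figure D5:**
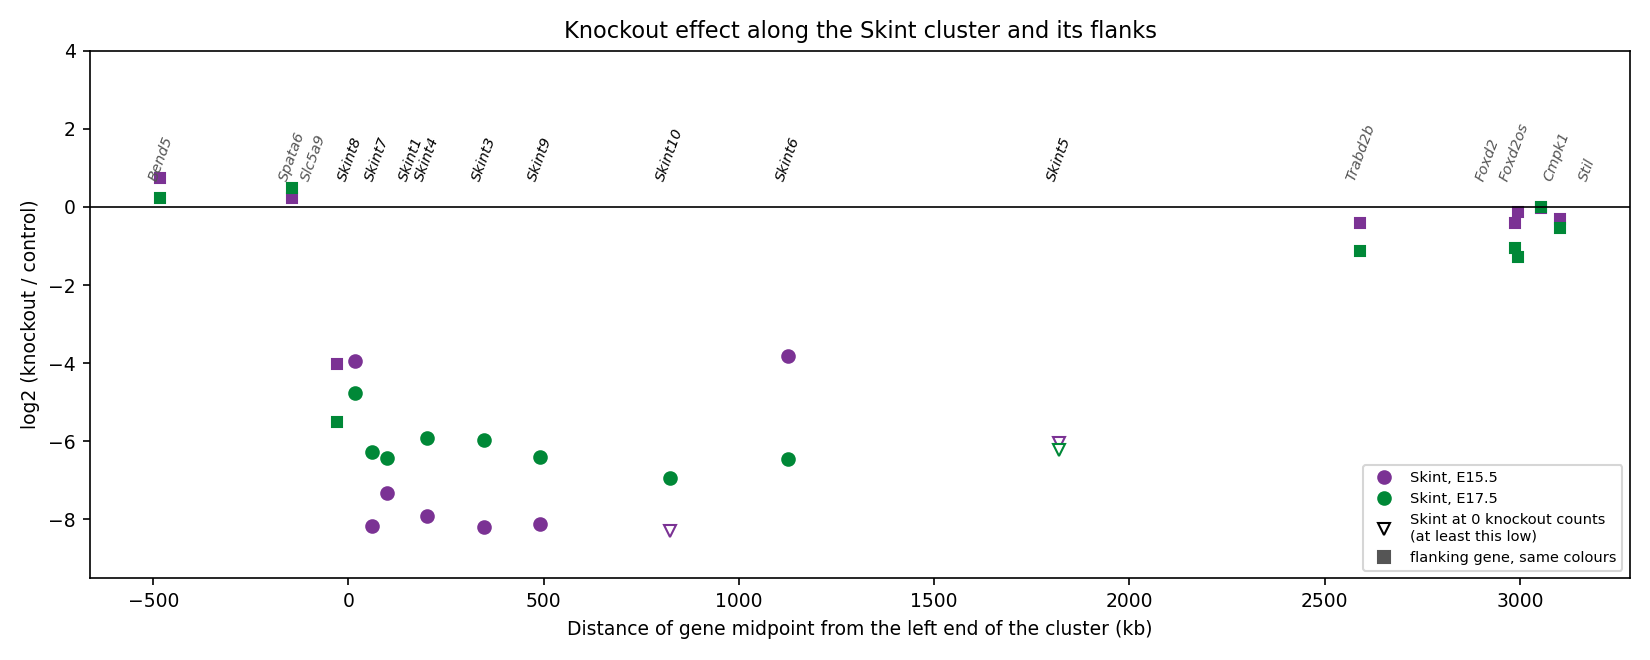
Log2 ratio of knockout to control at E15.5 and at E17.5 against the distance of each gene's midpoint from the left end of the cluster, in kb. Circles are count ratios of Skint genes, open triangles are bounds where the knockout group had 0 counts, and squares are fitted values of flanking genes; the Skint genes drawn (all but Skint11) and Slc5a9 lie far below 0, and Spata6 lies at 0.22 and 0.48.

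The nearest tested gene to the left of the family was lower as well, beside 22.3% of all genes at E15.5 and 26.7% at E17.5. Whether its change is tied to that of the Skint genes was not tested. Slc5a9, a sugar cotransporter gene 16.5 kb to the left of Skint8, averaged 2.15 CPM in E15.5 knockout epidermis, against 35.1 CPM in controls, a log2 fold change of -4.02 ± 0.28 (adjusted p 7e-07 by edgeR). At E17.5 it averaged 0.326 CPM in knockout epidermis, against 15.2 CPM in controls, a log2 fold change of -5.52 ± 0.37 (adjusted p 3.2e-07 by edgeR). Spata6, 90.2 kb from the cluster, was not lower. Its log2 fold change was 0.22 at E15.5 (adjusted p 0.25 by edgeR) and 0.48 at E17.5 (adjusted p 0.017 by edgeR, higher in knockout).

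The other flanking genes had smaller log2 fold changes than Slc5a9 in either direction. On the left, Bend5 had log2 fold changes of 0.74 (adjusted p 0.024) at E15.5 and 0.22 (0.46) at E17.5, and Elavl4 and Dmrta2 did not pass the test at either stage. On the right, Trabd2b, 162 kb from Skint11, had -0.41 (0.041) at E15.5 and -1.14 (5.3e-05) at E17.5. Foxd2 had -0.42 (0.43) and -1.05 (0.033), Foxd2os had -0.12 (0.8) and -1.27 (0.0051), Stil had -0.32 (0.068) and -0.53 (0.0055), and Cmpk1 had -0.03 (0.82) and -0.00 (1).

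Other genes whose pattern over the 8 libraries was most like that of the Skint genes included the keratin Krt1. Likeness was measured as Pearson's r between log2 CPM values, over 13571 genes, as a description in which the split between knockout and control dominates. The 5 genes most like the mean of the tested members were Fam83c (0.9982), Sult5a1 (0.9981), Camta1 (0.9977), Krt1 (0.9967) and Il20rb (0.9963). An r over 0.95 was reached by 5.08% of the genes compared, so such values are common in these libraries. Skint1 was most like Il20rb (0.9975), Cyp2s1 (0.9957) and Echdc1 (0.9952), and Skint9 was most like Tns4 (0.9930), Acsl1 (0.9919) and Gng7 (0.9917). The pattern of Skint6, compared after its values were seen, was most like Clec2g (0.9975), which averaged 2.68 CPM in E15.5 knockout epidermis, 50.4 CPM in E15.5 controls, 0.381 CPM in E17.5 knockout epidermis and 30.8 CPM in E17.5 controls. Next came Klk13 (0.9968) and Ggt6 (0.9967).

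The summed Skint counts were set against Krt1 and against Krt10, its partner keratin in suprabasal cells, within each library. Krt1 stood at 406 and 332 CPM in E15.5 knockout libraries, against 39900 and 38900 CPM in controls. Krt10 stood at 2720 and 2430 CPM in E15.5 knockout libraries, against 34200 and 37400 CPM in controls. Per 1000 counts of Krt1 there were 4.28 and 10.6 Skint counts in E15.5 knockout libraries, against 4.24 and 4.78 in controls, and 6.19 and 2.63 in E17.5 knockout libraries, against 6.25 and 6.14 in controls. Per 1000 counts of Krt10 there were 0.64 and 1.45 Skint counts in E15.5 knockout libraries, against 4.96 and 4.98 in controls, and 6.56 and 2.29 in E17.5 knockout libraries, against 7.68 and 6.94 in controls. Set against Krt10 the groups were apart at E15.5. At E17.5 they did not overlap, but knockout replicate 1 lay close to the lower control (6.56 against 6.94). The E17.5 knockout ratios rest on 80 and 19 Skint counts. Set against Krt1, one knockout library lay between the controls at each stage, and the other lay above them at E15.5 and below them at E17.5. The E15.5 knockout sum was mostly Skint6, at 3.37 and 8.89 per 1000 counts of Krt1, against 0.731 and 0.846 in controls. Skint3 (0.729 and 0.106, against 1.14 and 1.28), Skint5, Skint7, Skint9, Skint10 and Skint11 lay below their controls in both E15.5 knockout libraries. Skint1 and Skint4 were at 0 in replicate 1, and in replicate 2 Skint1 lay above its controls and Skint4 between them.

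Genes of the keratinocyte layers were lower in knockout epidermis as well, beside 22.3% of all genes lower and 23.2% higher at E15.5 and 26.7% each way at E17.5. Of the spinous keratinocyte genes, 8 of 8 tested were lower at E15.5 and 7 of 8 at E17.5, with median log2 fold changes of -1.88 and -3.59. Of the granular and cornified genes, 8 of 8 tested were lower at both stages, with medians of -4.01 and -5.47. Among them Flg2, a filaggrin relative, was at 4.22 and 3.98 CPM in E15.5 knockout libraries, against 1000 and 1140 CPM in controls. All 7 basal genes were lower at both stages (medians -1.91 and -3.26), including Trp63, the epidermal master regulator, at 14.9 and 19.8 CPM in E15.5 knockout libraries, against 210 and 234 CPM in controls. The keratins of periderm, the embryonic surface layer, moved the other way, with 5 of 5 higher at both stages (medians 2.99 and 4.36). Fibroblast markers were higher for 10 of 10 at E15.5 and 9 of 10 at E17.5, and myeloid markers for 6 of 6 and 5 of 6. The part of these shifts in the Skint result was not tested.

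The T cells that Skint1 selects are marked by the CD3 chains of the T cell receptor. Cd3g had 0 and 1 counts in E17.5 knockout libraries, against 35 and 53 in controls, an 82.7-fold lower level (14.5 to 3300, adjusted p 3.9e-04 by edgeR). At E15.5 it had 9 and 1 counts in knockout libraries, against 1 and 1 in controls, and missed the threshold (adjusted p 0.18). The difference between the knockout effects at the 2 stages passed the test for Cd3g (adjusted p 0.017 by edgeR). Cd3g passed the filter on low counts only through the E17.5 controls, where it was high, so its tests are a description only. Cd3d had 0 counts in both E17.5 knockout libraries, against 6 and 12 in controls, and no count in any E15.5 library. Between the control stages Cd3g was higher at E17.5 (adjusted p 0.0042), and so was Xcl1, a chemokine of activated T cells (adjusted p 0.032). Xcl1 had 4 and 4 counts in E17.5 knockout libraries, against 14 and 12 in controls, and missed the threshold (adjusted p 0.1). Xcl1 too passed the filter only through the E17.5 controls. Cd3e, another CD3 chain, had 14 and 18 counts in E17.5 knockout libraries, against 18 and 14 in controls (adjusted p 0.9). At E15.5 it had 16 and 14 counts in knockout libraries, against 5 and 4 in controls, and was higher (log2 1.64, adjusted p 0.044 by edgeR). Cd247, the CD3 zeta chain, had 134 and 103 counts in E17.5 knockout libraries, against 197 and 166 in controls (-0.53, adjusted p 0.063 by edgeR). At E15.5 its log2 fold change was -0.41 (adjusted p 0.15), and between the control stages it was -0.09 (adjusted p 0.86). Cd3d, Cd3e, Cd247 and Xcl1 are described here after their values were seen.

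Of the whole list of 24 genes of epidermal T cells, 22 were tested. At E15.5, 3 were higher and 6 lower in knockout epidermis, and at E17.5, 4 were higher and 7 lower, with median log2 fold changes of 0.02 and -0.21. Over all genes 23.2% were higher and 22.3% lower at E15.5, and 26.7% each way at E17.5, so these counts lie near the background. The summed level of the list was 113 to 122 CPM in E15.5 knockout libraries, against 194 to 202 CPM in controls, and 117 to 130 CPM in E17.5 knockout libraries, against 183 CPM in both controls. Ccr4, a skin-homing chemokine receptor, was at 0.037 and 0.211 CPM in E15.5 knockout libraries, against 13.6 CPM in both controls, and was 108-fold lower (52.0 to 269, adjusted p 2.3e-07 by edgeR). At E17.5 it was 82.3-fold lower (31.8 to 304). Egr3, a transcription factor induced by T cell receptor signals, was at 3.47 and 4.46 CPM in E17.5 knockout libraries, against 53.7 and 55.9 CPM in controls (-3.79, adjusted p 4.1e-09 by edgeR). Sema4d, a semaphorin of epidermal T cells that binds a plexin on keratinocytes, was lower at E15.5 (-1.46, adjusted p 9.7e-06 by edgeR). Ptprc, the pan-leukocyte marker CD45, was higher at E17.5, at 49.1 and 45.3 CPM in knockout libraries, against 17.3 and 16.2 CPM in controls (1.49, adjusted p 1.3e-06 by edgeR). Il7r was higher too, at E15.5 (1.70, adjusted p 0.0032 by edgeR) and at E17.5 (1.26, adjusted p 0.014 by edgeR). At E17.5 so were Lat (1.63, adjusted p 0.02 by edgeR) and Cd2 (2.41, adjusted p 0.016 by edgeR). Cd2 passed the filter only through the E17.5 knockout libraries, so its test is a description only. Il7r, Lat and Cd2 are described here after their values were seen. In controls at E15.5, where Cd3g had 1 count per library and Cd3d none, Ccr4 and Egr3 stood at 13.6 to 64.8 CPM.

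Keratinocytes engage these T cells through ligands and adhesion partners. Of 18 listed, 14 had a transcript and 12 were tested; 2 were higher and 3 lower at E15.5 (beside 23.2% and 22.3% of all genes), and 3 were higher and 4 lower at E17.5 (beside 26.7% each way), again near the background. H60c, a ligand of the receptor NKG2D found on keratinocytes, was at 5.07 and 5.31 CPM in E15.5 knockout libraries, against 84.1 and 80.4 CPM in controls (-3.98, adjusted p 2.3e-07 by edgeR), and at 4.05 and 2.26 CPM in E17.5 knockout libraries, against 69.8 and 46.7 CPM in controls (-4.20, adjusted p 1.3e-07 by edgeR). Cxadr, the ligand of the junctional receptor JAML, had log2 fold changes of -2.75 (adjusted p 1.9e-07) and -3.89 (1.4e-08). Cdh1, or E-cadherin, through which epidermal T cells adhere to keratinocytes, had -1.99 (2.6e-07) and -2.78 (1.6e-08). Ulbp1, another NKG2D ligand, was higher in knockout epidermis, at 1.01 (0.0026) and 1.19 (7.3e-04).

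No tested butyrophilin relative of the Skint genes was called lower, and those left out by the filter could not be called. Of 9 listed, 2 were tested, and both were higher in knockout epidermis at both stages, beside 23.2% of all genes at E15.5 and 26.7% at E17.5. Btnl2 passed the filter only through the E17.5 knockout libraries, where it was highest, so its tests are a description only. Btnl9 was at 8.14 and 8.02 CPM in E15.5 knockout libraries, against 4.34 and 4.11 CPM in controls (0.93, adjusted p 0.0012 by edgeR), and at 9.38 and 8.77 CPM in E17.5 knockout libraries, against 4.93 and 4.69 CPM in controls (0.92, adjusted p 9.8e-04 by edgeR). Btnl2 had 8 and 4 counts in E15.5 knockout libraries, against 0 and 0 in controls (adjusted p 0.018), and 29 and 18 counts in E17.5 knockout libraries, against 2 and 1 in controls (adjusted p 0.0021). Btnl1, Btnl4 and Btnl6, butyrophilin-like genes of the mouse gut, were at 0 in every library.

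Genes of thymic epithelium, the other site where Skint1 acts, were also read in these skin samples. Of 8 listed, 6 were tested, with 2 higher and 1 lower at each stage, beside 23.2% higher and 22.3% lower over all genes at E15.5 and 26.7% each way at E17.5. The lower gene was Foxn1, a transcription factor of thymic epithelium that also acts in skin keratinocytes, at 1.92 and 1.72 CPM in E15.5 knockout libraries, against 21.3 and 17.02 CPM in controls (-3.39, adjusted p 3.3e-07 by edgeR), and at 0.183 and 0.108 CPM in E17.5 knockout libraries, against 14.1 and 11.7 CPM in controls (-6.43, adjusted p 2.5e-08 by edgeR). The higher genes were Cd40, with log2 fold changes of 1.82 and 2.63, and the Notch ligand Dll4, with 0.63 and 0.61. The thymus itself was not sampled in these libraries.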

How the data were processed

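Total RNA of mouse embryonic epidermis was sequenced in 8 libraries. The series' design text names TopHat2 for alignment to mm10, HOMER for counting and edgeR for the authors' own calls. It does not give the strand setting or how reads that fit several places were counted. The deposited files hold raw counts of reads for each RefSeq transcript, not normalized by the authors. Of 30521 transcripts, 29908 were named from the RefSeq table of GRCm38.p6 and 182 from GENCODE M21; the 431 without a name held 2.08% of counts and were left out. A gene was represented by its transcript with the largest total. The 2 tables that join the libraries of a stage were not used.

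The raw counts were tested in edgeR 4.0.16 (R 4.3.3): filterByExpr on the 4 groups, which left 16342 genes, TMM scaling, and the quasi-likelihood test with 1 mean per group over all 8 libraries. The Benjamini-Hochberg adjustment covered all 16342 genes, calls were made at 0.05, and fold changes are log2 values with their SE. CPM values are on TMM-scaled totals. The script was tested on simulated data. Totals were 25226357 to 28895657 counts per library; exact 95% intervals and the floor of 3 counts cover counting error only. Where a group had 3 counts or fewer, the size given is the ratio of counts or a bound, and a fitted size that rests on such a group is said to do so. Alternatives were other size factors, library totals, no filter, DESeq2 1.42.0, summed transcripts, only the groups compared, a replicate block and each library left out. Coordinates, upstream sequence and transcript lengths come from RefSeq and GENCODE M21 on GRCm38.

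The members and gene lists were chosen with earlier results of these data known. Named genes are the members, up to 3 genes of each list by smallest adjusted p plus exceptions, the 5 tested neighbours on each side of the cluster, and the genes most alike in pattern; others are said to be chosen after their values were seen. Same-numbered libraries did not deviate together (correlation of deviations 0.0425 at E15.5 and -0.0698 at E17.5), so no pairing was used.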

Additional observations from a re-analysis of the deposited data

Results flagged for a closer look

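The knockout effect on Skint6 differed between the stages by a small margin of the test. Its log2 fold change in knockout against control epidermis was lower at E17.5 than at E15.5 by a difference of -2.61 (adjusted p 0.045 by edgeR's test of the difference). The call was lost with summed transcripts and without most of the single libraries. It held with other size factors, library totals, no filter, DESeq2 and a replicate block. Adjusted p values there ran from 0.0115 (edgeR, no filter) to 0.0468 (edgeR, other size factors). The difference was -1.96 without E15.5 knockout replicate 2 and -3.61 without E17.5 knockout replicate 1. The values were 0.329 and 0.108 CPM in E17.5 knockout libraries, against 23.6 and 15.02 CPM in E17.5 controls, and 1.37 and 2.96 CPM in E15.5 knockout libraries, against 29.2 and 32.9 CPM in E15.5 controls.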

How the results depend on the processing

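In both knockout comparisons all 8 tested Skint genes were lower under every alternative run and without any 1 of the libraries (8 to 8 genes called). The stage comparisons were less settled. The difference of the knockout effects, called for 1 gene, was called for 0 with summed transcripts (Skint6 -2.61, adjusted p 0.0535) and for 0 to 1 without 1 library, with Skint6 between -1.96 and -3.61. The 1 call without E17.5 knockout replicate 2 was Skint10, in the other direction (adjusted p 0.0477). Between control stages, 2 genes were called, against 0 with DESeq2, 1 with summed transcripts, 6 (5 lower, 1 higher) with only the groups compared and 0 to 2 without 1 library. With a replicate block 4 were called (3 lower, 1 higher), beside 2072 of 16342 genes. The labels do not say whether the replicate numbers pair the samples. Over all genes, the control stages gave 1655 calls of 15740 with only the groups compared, 1859 of 16700 with DESeq2 and 1713 of 16462 with summed transcripts. For the knockout stages 2290 of 19766 genes were called with no filter. Between knockout stages, 1 gene was called, against 2 with no filter and 1 to 3 without 1 library. Without E17.5 knockout replicate 1, Skint4 reversed: over the libraries left out, its difference ran from -3.99 to 6.58 and its change between knockout stages from -4.64 to 5.92, with 0 counts left in a group at either end. Skint5 between control stages ran from -0.28 (without E17.5 control replicate 1) to 0.55, with -0.06 without E15.5 control replicate 2; none of these values was called in the first place, and the cause was not tested. Scaling to library totals only moved the median of all genes by -0.212 at E17.5, -0.214 for the difference and 0.191 between control stages, with no change of direction in a Skint gene. Low knockout counts limit the size of every fold above.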
